A study of Mus musculus with 18 samples.

Results

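The cluster of miR-322, miR-503, miR-542 and miR-450 is a group of X-linked microRNA (miRNA) hairpins on one strand of the mouse genome. The 8 mature miRNAs described here were taken by name: mmu-miR-322-5p, mmu-miR-322-3p, mmu-miR-503-5p, mmu-miR-351-5p, mmu-miR-542-5p, mmu-miR-542-3p, mmu-miR-450a-5p and mmu-miR-450b-5p. All 8 were found, on 9 of the 1184 named entries of the table, and all 8 passed the filter on low counts, which kept 619 entries. Small RNA was sequenced from mouse kidney in 18 libraries, 6 in each of 3 groups. The control group was C57BL/6J mice on 0.9% saline. The diabetic nephropathy (DN) group was C57BL/KsJ mice, also on 0.9% saline. Treated mice were C57BL/KsJ DN mice on 10 mg/kg/day of germacrone, a sesquiterpene from plants. Control mice were of another strain than the DN mice, so strain cannot be told apart from disease in either comparison with controls. The labels state neither the genotype nor the age of the mice, nor how the disease arose. They also do not say whether each library is a separate animal, so p-values here reflect spread among libraries alone, and this may be technical.

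A miRNA is cut from a hairpin as a 5p arm and a 3p arm, and the loaded arm silences mRNAs that pair with its seed, bases 2 to 8. The gene of miR-322 is the mouse counterpart of human MIR424, and with miR-503 it is known for targeting mRNAs of cell cycle genes such as cyclins and Cdc25a. Cluster hairpins lie close together, and clustered miRNAs are often cut from a shared primary transcript, in which case their mature levels still depend on how each arm is processed and how long it lasts. In kidney, miRNAs of this kind are read from bulk tissue, in which fewer cells of a type and less RNA per cell cannot be told apart.

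The mature sequences below are those of RefSeq (GRCm38.p6). They are shown because their seeds set which arms can act alike and because the members are described by base composition further on. Capitals mark the seed.
mmu-miR-322-5p: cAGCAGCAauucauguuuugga
mmu-miR-503-5p: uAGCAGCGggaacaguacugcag
mmu-miR-351-5p: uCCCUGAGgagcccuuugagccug
mmu-miR-322-3p: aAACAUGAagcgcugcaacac
mmu-miR-542-3p: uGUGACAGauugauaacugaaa
mmu-miR-542-5p: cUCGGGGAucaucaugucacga
mmu-miR-450a-5p: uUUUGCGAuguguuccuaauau
mmu-miR-450b-5p: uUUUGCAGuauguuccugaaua
The seed of miR-322-5p is also that of miR-15a-5p, miR-15b-5p, miR-16-5p, miR-195a-5p and miR-497a-5p, which come from other loci. The seed of miR-351-5p is also that of miR-125a-5p and miR-125b-5p. The other 6 members shared their seed with no other mouse arm of the table that had a RefSeq sequence. Entries named for other species were not compared. Without gaps, miR-450a-5p and miR-450b-5p were identical at 15 of 22 bases. GC content was 31.8% in miR-542-3p, miR-450a-5p and miR-450b-5p, 40.9% in miR-322-5p, 47.6% in miR-322-3p, 54.5% in miR-542-5p, 56.5% in miR-503-5p and 62.5% in miR-351-5p.

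In RefSeq's GRCm38.p6 the mature arms of 7 hairpins lie on the minus strand of chrX:53048008-53054327, a span of 6320 bases, and the labels name no build for the deposited counts. Mir322 comes first in the direction of transcription. Mir503 starts 278 bases downstream of it, Mir351 989, Mir542 4853, Mir450-2 5967, Mir450-1 6100 and Mir450b 6262 bases downstream. RefSeq places the long noncoding RNA gene C430049B03Rik at the same locus. Mature miR-450a-5p has the same sequence in Mir450-1 and Mir450-2, and the table lists it on 2 entries with identical values. Its values ended in 0.5 in 7 of 18 libraries and were whole in the other 11; how the authors split its reads is not stated, and levels below are of 1 entry.

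Levels are given in CPM, the count of an entry scaled to the size of its library.

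**Figure D1:**
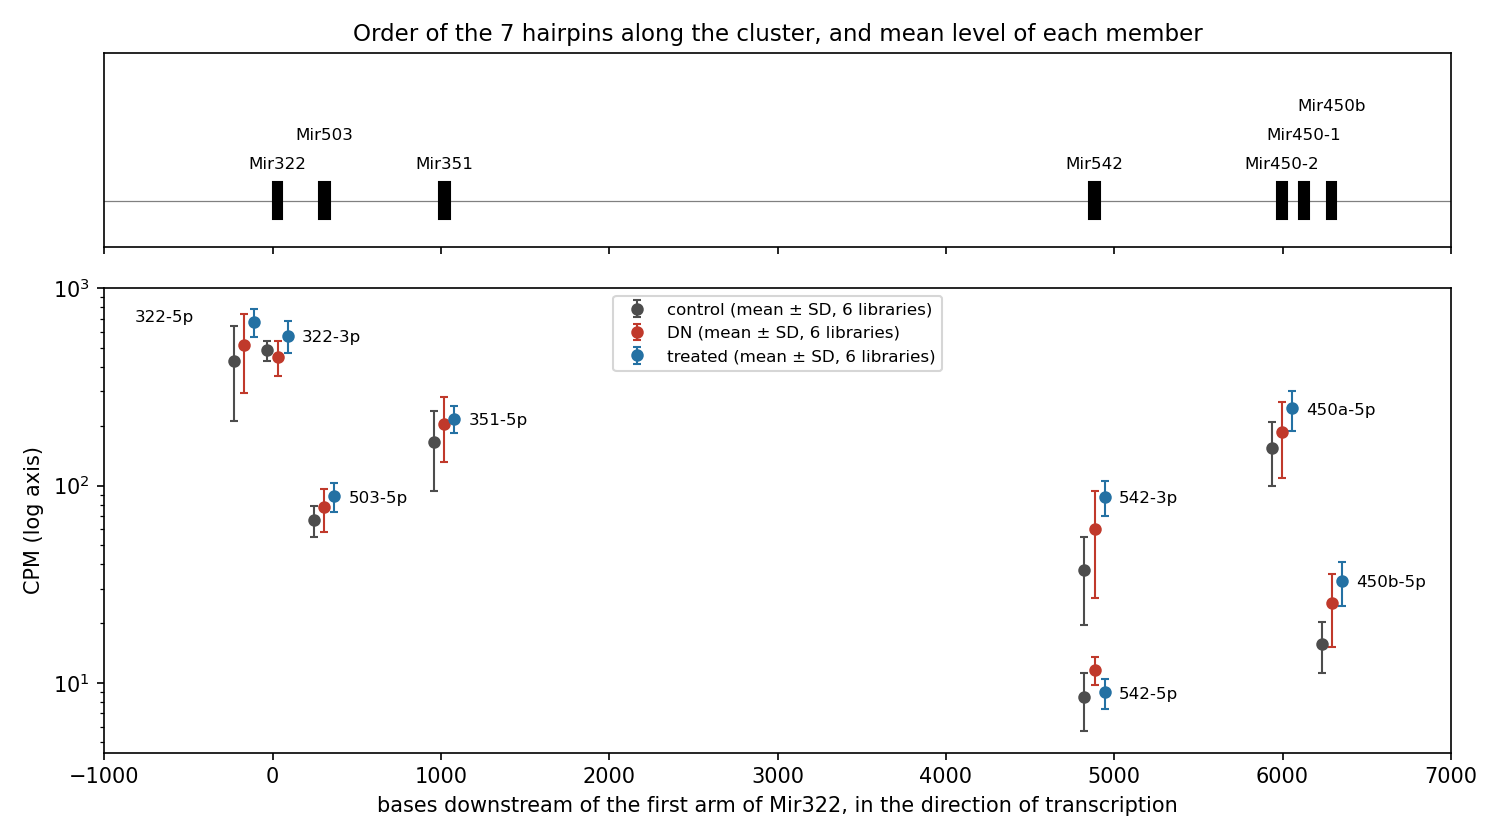
Map of the cluster. Top: the 7 hairpins at their distance in bases from the first arm of Mir322 (RefSeq GRCm38.p6). Bottom: mean level of each member in CPM (log axis) ± SD over 6 libraries per group at its hairpin, with groups drawn side by side, miR-322-5p moved left for legibility and miR-450a-5p drawn at Mir450-2. Levels do not follow the order of the hairpins: both arms of miR-322 are at the top (miR-322-3p first in control at 484.8 CPM, miR-322-5p first in DN at 518.5 and in treated at 677.8 CPM), and miR-542-5p is at the bottom at 8.468, 11.64 and 8.948 CPM in control, DN and treated.

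Total counts of the named entries were 3639790 to 7236246 per library. The kidney epithelium markers (5 of 5 listed) were present in every library and summed to 80372 to 113682 CPM (median 90197) in control, 31684 to 139218 (median 110721) in DN and 110811 to 148620 (median 126990) in treated libraries. A few libraries stood apart, DN 2 by cell type markers. It held 23150 CPM of 6 leukocyte markers, where the other DN libraries held 1345 to 1906, and it had the lowest sum of kidney epithelium markers. None of the markers was at 0 in all libraries. Control libraries held 2789 to 3708 CPM of the leukocyte markers, above all DN and treated libraries except DN 2 and treated 6 (8492). Control 2 and DN 3 differed by GC content: the slope of log2 deviation on GC over 267 other miRNAs was 0.66 and 0.48 per 10 points of GC in them and lay between -0.25 and 0.25 in the other 16 libraries. They also differed by cell type markers. Endothelial markers summed to 9172 CPM in control 2 (control median 19390) and 8034 in DN 3 (DN median 19547), beside 8007 in DN 2. Smooth muscle markers were lowest of their group in both, at 26078 CPM in control 2 and 21720 in DN 3. Kidney epithelium markers stood at 93153 CPM in control 2 and 83660 in DN 3. What part these features have in the results below was not tested, other than by the values given without these libraries.

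Together the 8 members made up 1363 ± 210.8 CPM in control, 1536 ± 350.1 in DN and 1935 ± 180.9 in treated libraries (SD, n = 6). Control libraries ran from 1082 to 1663, DN libraries from 1079 to 1925 and treated libraries from 1648 to 2172 CPM, so the treated and control ranges met only at treated 6 and control 6. By mean level over all libraries the members ranked between 99 (miR-322-5p) and 332 (miR-542-5p) of 441 tested mouse names. From high to low, the means over 18 libraries were miR-322-5p at 541.4, miR-322-3p at 502.9, miR-351-5p at 196.9, miR-450a-5p at 196.2, miR-503-5p at 77.52, miR-542-3p at 61.78, miR-450b-5p at 24.7 and miR-542-5p at 9.687 CPM. Neighbours in that order whose means lay within the SD over libraries were both arms of miR-322, miR-351-5p with miR-450a-5p, and miR-503-5p with miR-542-3p.

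Of the members with seeds of the miR-15/16 type, miR-322-5p was the more abundant, although in control its mean (427.9 CPM) lay below that of its own 3p arm (484.8 CPM). Its level ran from 124.6 CPM (control 2) over a median of 423.4 to 726.5 CPM (control 6) in control libraries. It ran from 173.5 (DN 3) over 541.7 to 784 CPM in DN libraries and from 515.3 over 662.5 to 833.4 CPM in treated libraries. All 6 treated libraries lay above the control median, but control 4 and control 6 overlapped with them. The level of miR-503-5p, whose seed is close to that one, ran from 49.94 over 69.26 to 80.05 CPM in control, from 57.32 over 75.57 to 110.9 CPM in DN and from 69.08 over 87.76 to 109.1 CPM in treated libraries. The groups overlapped, and the highest library was DN 2.

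The level of miR-351-5p, which carries the miR-125 seed, ran from 106.8 over 136.6 to 299.8 CPM in control, from 126.1 over 205 to 312.3 CPM in DN and from 179 over 218.7 to 268.9 CPM in treated libraries. Its highest values in the first 2 of these groups were in control 2 and DN 3, the same libraries that were lowest for miR-322-5p. The count of miR-351-5p was 2.405 times that of miR-322-5p in control 2 and 1.8 times in DN 3. That ratio was 0.1608 to 0.6654 in every other library.

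The 3p arm of miR-322 stood at nearly the same level as the 5p arm. It ran from 429.6 over 467.5 to 561.8 CPM in control, from 335.3 over 449.9 to 600 CPM in DN and from 388.3 over 587.6 to 716.8 CPM in treated libraries. Its coefficient of variation was 11.68% in control, 20.4% in DN and 18.44% in treated libraries, where that of miR-322-5p was 50.11%, 43.14% and 16.13%, so it varied less than the 5p arm in control and DN but not in treated libraries. It was neither low nor high in control 2 (484.8 CPM) and DN 3 (437.5 CPM).

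The miR-542 hairpin gave mostly its 3p arm. The level of miR-542-3p, which is known in human cells for targeting survivin, ran from 16 over 35.12 to 66.6 CPM in control, from 13.11 over 67.44 to 105.9 CPM in DN and from 64.5 over 90.8 to 106.7 CPM in treated libraries. The lowest treated library lay just under the highest control library, and the lowest values were again in control 2 and DN 3. The 5p arm, the least abundant member with 23 to 80 reads per library, ran from 4.698 over 8.836 to 11.34 CPM in control, from 8.232 over 11.73 to 13.61 CPM in DN and from 7.424 over 8.832 to 11.67 CPM in treated libraries. Its groups overlapped, and all 6 treated libraries lay under the DN median.

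The miR-450 hairpins gave different levels. The level of miR-450a-5p ran from 62.93 over 168.6 to 208.8 CPM in control, from 78 over 221.7 to 269.5 CPM in DN and from 157.3 over 272.3 to 299.8 CPM in treated libraries. Treated 5 and treated 6 lay within the control range and the other 4 treated libraries above it. The level of miR-450b-5p was 10.44, 11.07, 14.87, 16.34, 20.44 and 21.49 CPM in the control libraries in rising order. It was 11.8, 15.57, 25.8, 29.12, 30.57 and 39.99 CPM in the DN libraries and 23.06, 28.33, 29.49, 30.99, 40.07 and 45.2 CPM in the treated libraries. Every treated library lay above every control library, and 4 of 6 DN libraries did so too.

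**Figure D2:**
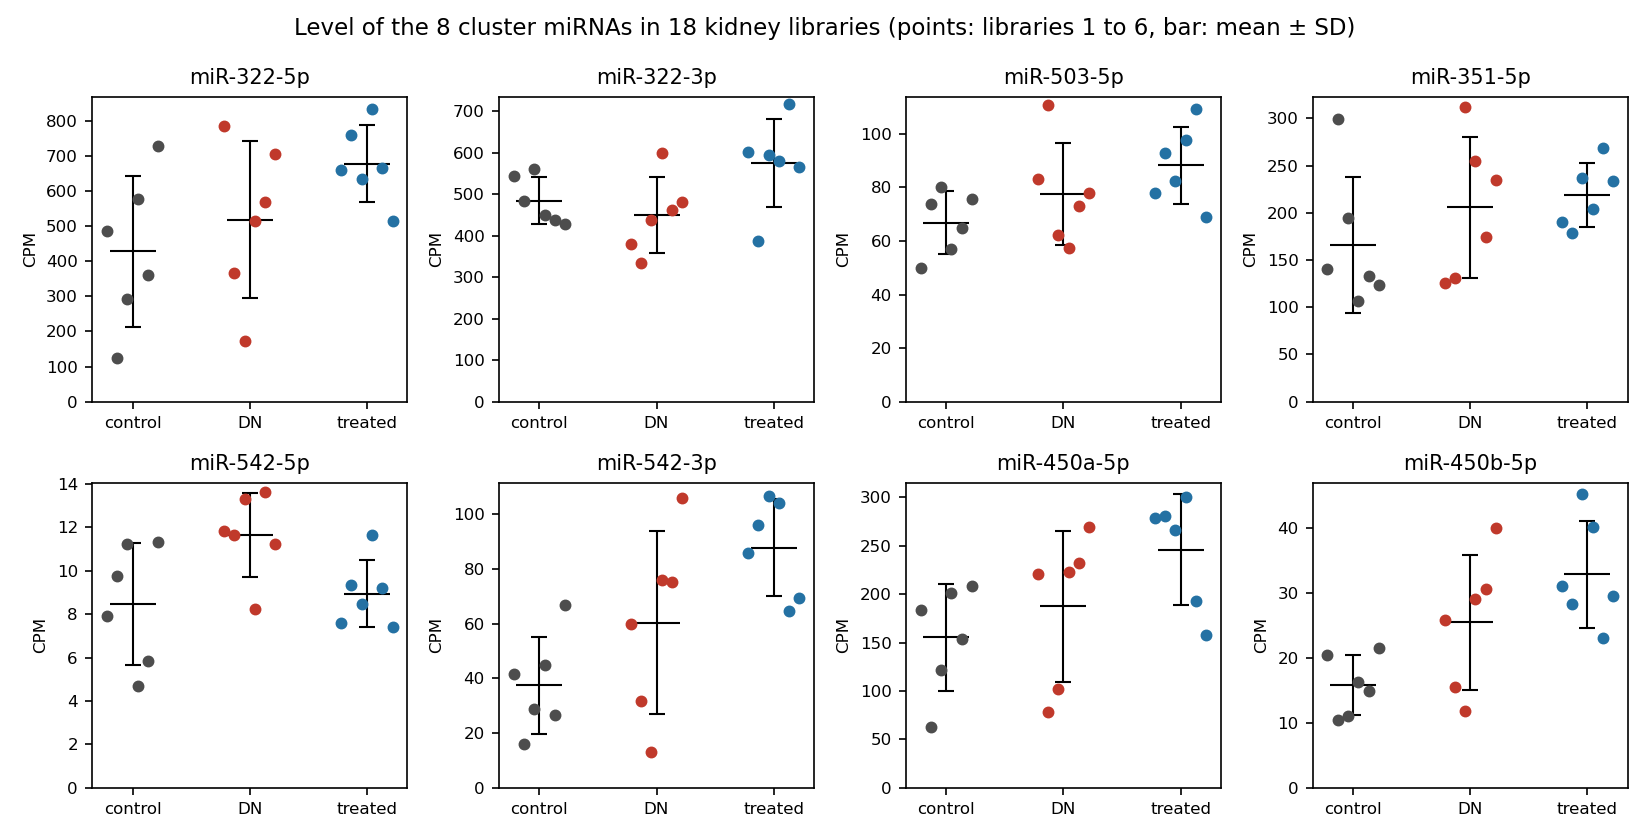
Level (CPM) of the 8 members in each of the 18 libraries. Points are libraries 1 to 6 from left to right within each group and bars are the mean ± SD. Control 2 and DN 3 are the lowest of their groups for miR-322-5p and miR-542-3p and the highest for miR-351-5p, and miR-450b-5p is the member whose treated libraries (23.06 to 45.2) all lie above the controls (10.44 to 21.49).

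The first comparison, DN with control, asks what differed in kidney between the disease model and normal mice. Of the 8 members, 7 were higher in DN and miR-322-3p was lower, where 56.54% of all 619 entries were higher. The members' median log2 fold change was 0.29, against 0.08 over all entries. None passed an adjusted p under 0.05 (edgeR's quasi-likelihood test, Benjamini-Hochberg over 619 entries), and neither did any other entry (0% of 619). At an unadjusted p under 0.05, 1 member was higher, where 5.17% of all entries were higher by that rule. That member was miR-450b-5p, at 25.48 ± 10.35 CPM against 15.78 ± 4.608 (SD, n = 6), a log2 fold change of 0.69 (SE 0.2893, 95% CI 0.09 to 1.30; edgeR adjusted p = 0.529). The arm miR-542-3p had the same log2 fold change of 0.69 with a wider interval (-0.13 to 1.50; edgeR adjusted p = 0.684). The estimates of the other members lay between -0.11 for miR-322-3p and 0.46 for miR-542-5p. Over all entries, 47 had an unadjusted p under 0.05, and the number past the adjusted threshold was 4 by DESeq2 and 91 by limma-voom with sample weights. By limma-voom miR-542-3p (1.08, adjusted p = 0.0145) and miR-450b-5p (0.96, adjusted p = 0.0131) passed; by DESeq2 no member did.

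This comparison depended on libraries. Without control 2, DN 2 and DN 3, a choice made after seeing the data, edgeR called 51 entries and among them miR-542-3p (log2 fold change 0.91, adjusted p = 0.0371) and miR-450b-5p (0.88, adjusted p = 0.0349). Leaving out DN 2 or DN 3 alone gave 6 entries each and leaving out control 2 alone gave 1, with no member among them. The log2 fold change of miR-351-5p moved from 0.31 to 0.62 without control 2 and to 0.16 without DN 3.

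The second comparison, treated with DN, asks what differed with germacrone on the DN background. Of the 8 members, 7 were higher in treated libraries and miR-542-5p was lower, where 42.16% of all entries were higher. The members' median log2 fold change was 0.36, against -0.05 over all entries. None passed the adjusted threshold, nor did any of the 619 entries (0%). No member had an unadjusted p under 0.05, where 0.808% of entries were higher by that rule and 23 entries in all passed it. No entry passed by DESeq2 or limma-voom either. The largest estimate was that of miR-542-3p, 0.54 (95% CI -0.27 to 1.35; edgeR adjusted p = 0.8), at 87.68 ± 17.76 against 60.25 ± 33.43 CPM. The narrowest interval was that of miR-322-3p, 0.36 (95% CI 0.00 to 0.71; edgeR unadjusted p = 0.052, adjusted p = 0.8), and miR-542-5p stood at -0.38 (95% CI -0.91 to 0.15). The intervals of miR-322-5p, miR-542-3p and miR-450a-5p include a 2-fold higher level in treated libraries. The median over the members fell to 0.10 without control 2, DN 2 and DN 3, and to 0.22 without control 2 and DN 3.

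The third comparison, treated with control, spans strain, disease and treatment together. All 8 members were higher in treated libraries, where 49.76% of all entries were higher. Several members correlated with each other over libraries (below), so these are not 8 separate results. The members' median log2 fold change was 0.53, against 0.00 over all entries. With library sizes unscaled, which moved the median of all entries to -0.20, 7 of the 8 were higher and miR-542-5p stood at -0.14. The summed kidney epithelium markers were also higher in treated libraries, from 110811 to 148620 CPM, with each treated library above 5 of 6 controls, and their part in the members' difference was not tested. None passed the adjusted threshold, and again none of the 619 entries did (0%). At an unadjusted p under 0.05, 4 members were higher, where 10.7% of all entries were higher by that rule and 121 entries in all passed it. These were miR-450b-5p, miR-542-3p, miR-450a-5p and miR-503-5p. The 3 comparisons share libraries, so their values for one member are not independent.

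For miR-450b-5p the means were 32.86 ± 8.195 CPM in treated and 15.78 ± 4.608 in control libraries (SD, n = 6), a log2 fold change of 1.06 (SE 0.2909, 95% CI 0.45 to 1.67; edgeR adjusted p = 0.148). It was the only member whose treated libraries all lay above the controls, which 3.55% of the 619 entries did. For miR-542-3p the means were 87.68 ± 17.76 and 37.39 ± 17.75 CPM, a log2 fold change of 1.23 (SE 0.393, 95% CI 0.41 to 2.05; edgeR adjusted p = 0.173), and 6 of 6 treated libraries lay above the median of the controls. The estimate of miR-450a-5p was 0.66 and that of miR-503-5p was 0.40 (edgeR adjusted p = 0.253 for both), and miR-322-5p stood at 0.66 with an interval that crossed 0 (-0.08 to 1.40). The smallest estimate was 0.08 for miR-542-5p.

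Here too the call turned on the fit. By DESeq2 miR-450b-5p was past the threshold (1.02, adjusted p = 0.0209) as 1 of 18 entries. By limma-voom 106 entries and 5 members passed, which were miR-322-5p (0.72, adjusted p = 0.0402), miR-351-5p (0.55, 0.0496), miR-542-3p (1.33, 0.00648), miR-450a-5p (0.66, 0.0323) and miR-450b-5p (1.11, 0.00677). With only the treated and control libraries in the edgeR fit, 56 entries passed, among them miR-542-3p (1.21, adjusted p = 0.0381) and miR-450b-5p (1.04, adjusted p = 0.0359). Without control 2, DN 2 and DN 3 it was 50 entries, again with miR-542-3p (1.05) and miR-450b-5p (0.94), both at an adjusted p of 0.0188. Without DN 2 alone 7 entries passed and without DN 3 alone 3, with no member among them.

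**Figure D3:**
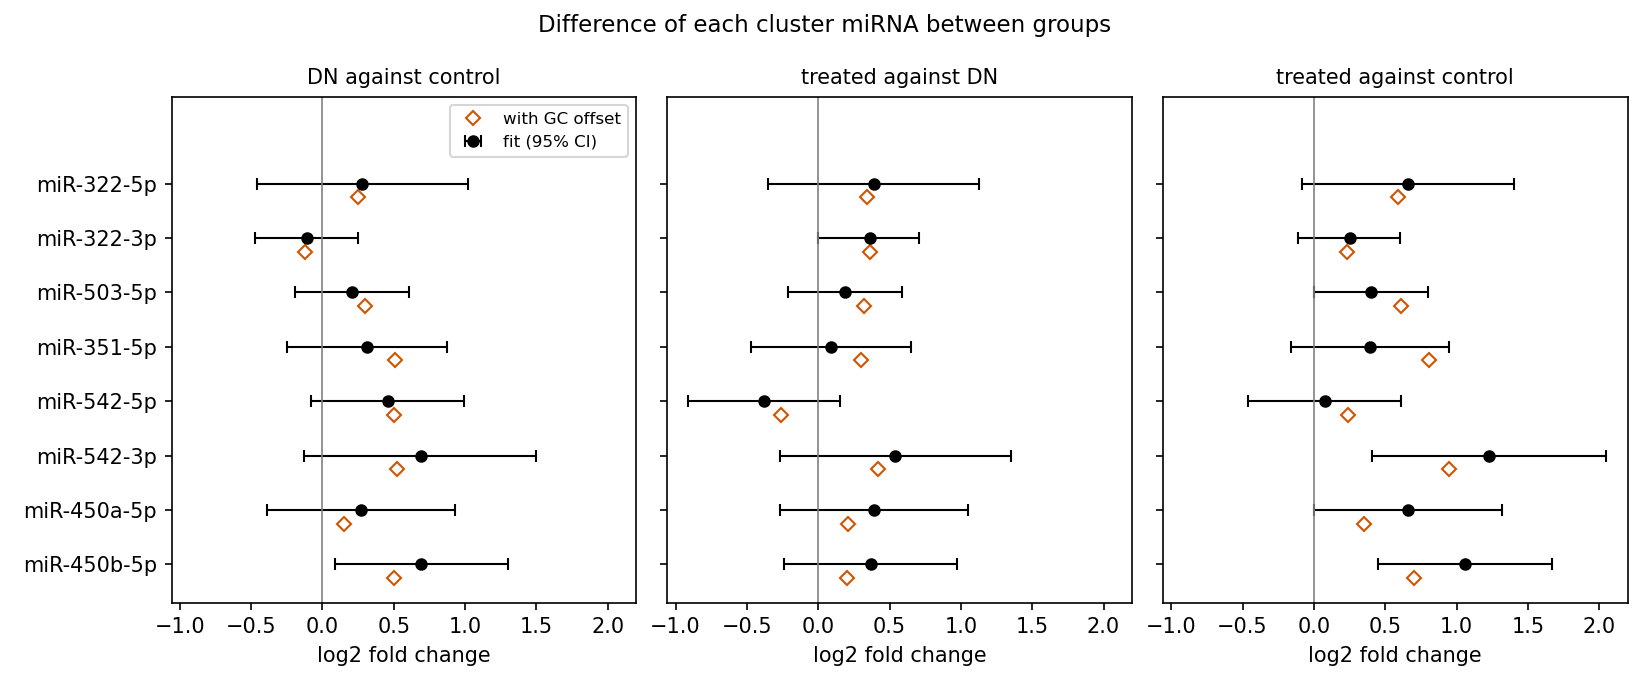
Log2 fold change of each member in the 3 comparisons. Filled points and bars are the edgeR estimates with 95% confidence intervals, fitted over 619 entries, and open diamonds are estimates with a GC offset per library, fitted over 405 mouse entries with a RefSeq sequence. In treated against control all 8 estimates lie above 0 in both fits, and the offset lowers miR-450b-5p from 1.06 to 0.70 and raises miR-351-5p from 0.39 to 0.81.

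The members did not vary as one group from library to library. After each group's mean was removed, the log2 CPM of miR-322-5p, miR-542-3p, miR-450a-5p and miR-450b-5p correlated at r = 0.78 to 0.92 with each other over the 18 libraries. These 4 come from the first hairpin and the last 4 hairpins and are the members of lowest GC content, 31.8% to 40.9%. Against them, miR-322-5p correlated at -0.72 with miR-351-5p, at -0.07 with its own 3p arm and at 0.01 with its neighbour miR-503-5p. Likewise miR-542-3p correlated at -0.12 with miR-542-5p. Points of such a correlation share depth and base composition, and these values are descriptions.

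Control 2 and DN 3 had the steepest GC slopes, and in them the 4 members of low GC content were below their mean over 18 libraries and miR-351-5p was above it. The same libraries were low in endothelial markers, and what part that has was not tested. The mean slope was 0.12 ± 0.31 in control, 0.01 ± 0.26 in DN and -0.13 ± 0.11 in treated libraries (SD, n = 6), so it was lowest in the treated group, by less than the SD of the control libraries. With a GC offset, a choice made after seeing the data, the log2 fold changes of treated against control were 0.95 for miR-542-3p, 0.81 for miR-351-5p, 0.70 for miR-450b-5p, 0.61 for miR-503-5p, 0.59 for miR-322-5p, 0.35 for miR-450a-5p, 0.24 for miR-542-5p and 0.23 for miR-322-3p. On the same 405 entries without the offset, miR-450b-5p stood at 1.07, miR-542-3p at 1.24, miR-450a-5p at 0.67 and miR-351-5p at 0.41. All 8 stayed higher with the offset, with a median of 0.60, and none passed (smallest edgeR adjusted p = 0.0645, for miR-351-5p).

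**Figure D4:**
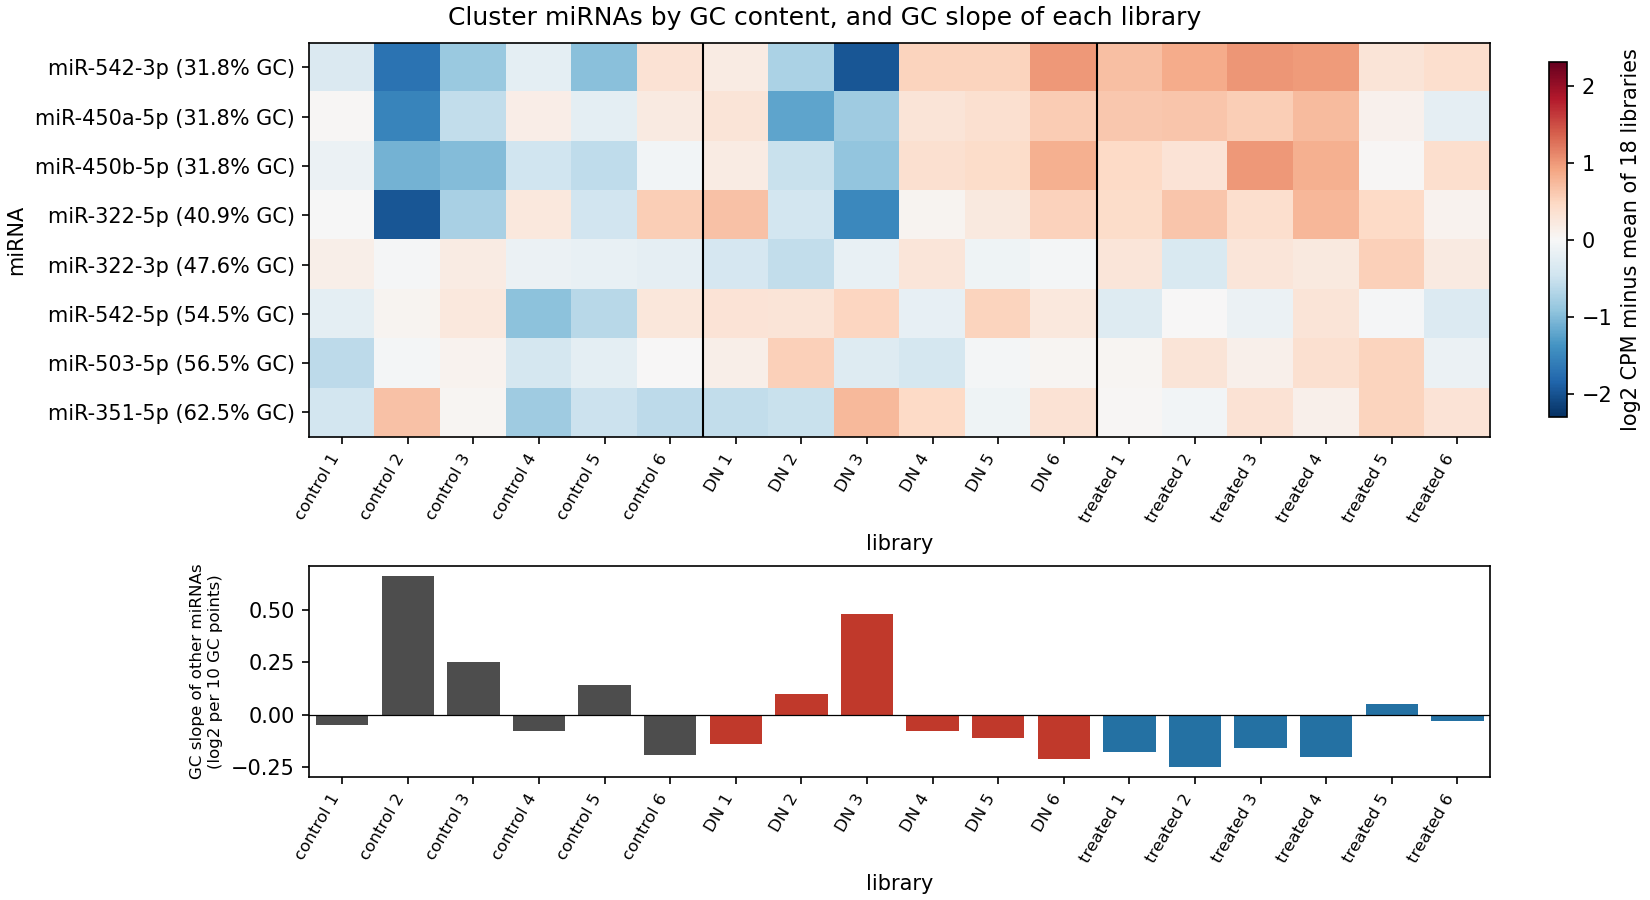
Members by GC content. Top: log2 CPM of each member minus its mean over 18 libraries, with members ordered from 31.8% to 62.5% GC and black lines between the control, DN and treated groups. Bottom: GC slope of 267 other miRNAs in each library (log2 per 10 points of GC). In control 2 (slope 0.66) and DN 3 (0.48) all 4 low-GC members at the top are below their mean, by 0.82 or more, and miR-351-5p at the bottom is at its highest. For miR-450a-5p DN 2 (-1.21) lies under DN 3 (-0.82), and for miR-450b-5p control 3 lies under DN 3 (-0.91).

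The ratio of arms within one hairpin needs no scaling between libraries. For miR-322 the log2 ratio of 3p over 5p counts was 0.37 ± 0.97 in control, -0.08 ± 0.81 in DN and -0.24 ± 0.42 in treated libraries (SD, n = 6). It ran from -1.05 in DN 1 to 1.96 in control 2, so either arm was the more abundant depending on the library, and the groups overlapped. The adjusted p of the 3 group differences was 0.394 to 0.842 (exact permutation tests, 2-sided, adjusted over 6 tests). For miR-542 the log2 ratio was 2.08 ± 0.91 in control, 2.11 ± 1.24 in DN and 3.28 ± 0.29 in treated libraries, and the 3p arm held 87.53% to 92.64% of the reads of both arms in treated libraries. In DN 3 the arms were nearly equal, at 60 and 61 reads, and in control 2 the 3p arm held 62.11%. Treated libraries were higher by 1.17 than DN (exact permutation p = 0.0238, adjusted 0.0714) and by 1.21 than control (exact permutation p = 0.00866, adjusted 0.0519), with 6 of 6 treated libraries above the median of either group. Neither difference passed after adjustment. Without control 2 and DN 3 the difference from control was 0.94 (exact permutation, adjusted p = 0.104), and that from DN was 0.75 (exact permutation, adjusted p = 0.143). Without DN 2 as well, the difference from DN was 0.47 (exact permutation, adjusted p = 0.314). In both hairpins, the arm of lower GC content (5p in miR-322, 3p in miR-542) was the one that was low in control 2 and DN 3.

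**Figure D5:**
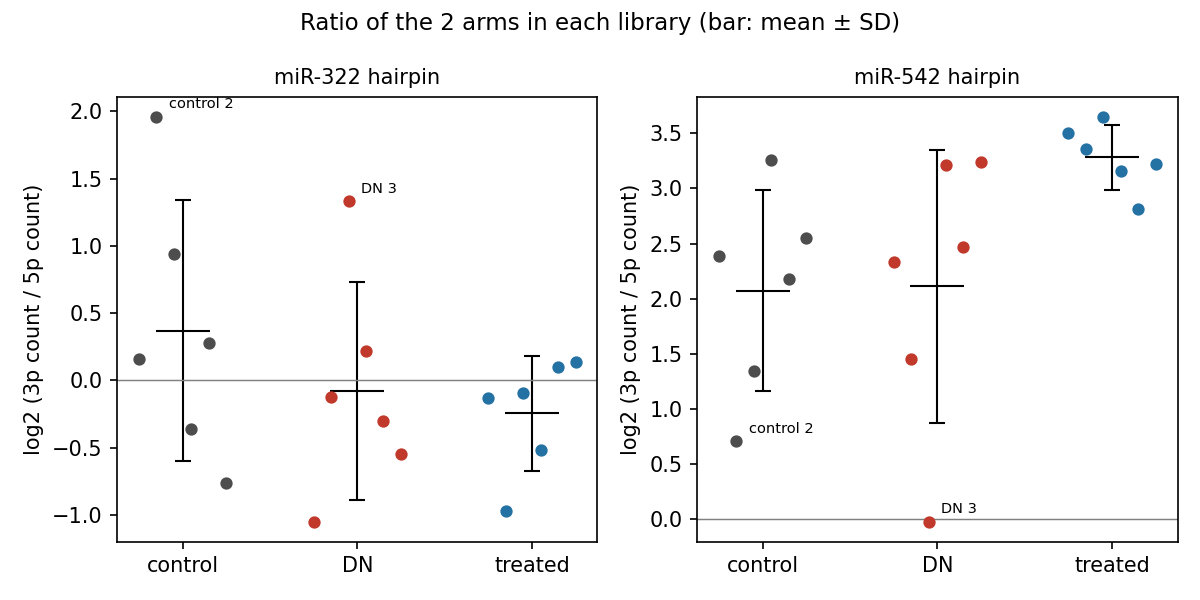
Log2 ratio of 3p to 5p counts in each library for the miR-322 and miR-542 hairpins, with bars at the mean ± SD of 6 libraries. Control 2 and DN 3 are named: they are the 2 highest libraries for miR-322 (1.96 and 1.33) and the 2 lowest for miR-542 (0.71 and -0.02), and treated libraries sit between 2.81 and 3.65 for miR-542.

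Shares of the summed level of the 8 members, with miR-450a-5p counted on 1 of its 2 entries, were led by the miR-322 arms. In control libraries miR-322-5p held 30.06 ± 11.72% and miR-322-3p 36.36 ± 7.198% of that sum. In treated libraries they held 34.96 ± 4.043% and 29.75 ± 5.157%. The share of miR-450b-5p was 1.143 ± 0.2046% in control, 1.604 ± 0.358% in DN and 1.7 ± 0.3855% in treated libraries. The share of miR-542-3p was 2.635 ± 0.8709%, 3.676 ± 1.515% and 4.536 ± 0.821% in the same order (SD, n = 6).

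The other arms of the hairpins were listed too, and 4 of 5 were tested. The arms miR-450a-1-3p and miR-450b-3p, identical at 20 of 22 bases, had the same values in every library and cannot be told apart. Their level was 20.79 ± 4.975 CPM in control, 25.23 ± 7.719 in DN and 31.22 ± 6.324 in treated libraries, a log2 fold change of 0.59 from control to treated (edgeR adjusted p = 0.202). The arm miR-503-3p was at 33.33 ± 8.192, 25.6 ± 7.665 and 26.64 ± 7.733 CPM, so its estimate against control pointed the other way from miR-503-5p (-0.38 in DN and -0.32 in treated). The arm miR-351-3p was at 9.139 to 12.08 CPM by group mean, and miR-450a-2-3p, at 0 to 15 reads, was not tested. None of the 4 passed in any comparison.

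Of the miRNAs of other loci with a member's seed, 7 of 7 were tested and none passed. In treated against control, 4 were higher and 3 lower, with a median of 0.13 and a range of -0.25 to 0.36, beside the members' median of 0.53. Among those with the seed of miR-322-5p, miR-16-5p was the most abundant at 4058 ± 1414 CPM in control, 4408 ± 1789 in DN and 4007 ± 560.9 in treated libraries (SD, n = 6). Counting each name once, miR-322-5p made up 5.868 ± 1.501%, 6.804 ± 2.496% and 8.969 ± 0.7918% of the reads of the 6 arms with that seed in control, DN and treated libraries. Treated libraries ran from 8.042% to 10.19%, all above the highest control at 7.847%, while DN libraries ran from 3.128% (DN 2) to 9.548%. The share of miR-351-5p among the 3 arms with the miR-125 seed was 3.276 ± 0.5695%, 4.698 ± 1.533% and 5.008 ± 0.4689%. Treated libraries ran from 4.145% to 5.561%, again above the highest control at 3.896%. By CPM the treated and control libraries overlapped for both members. How often the share of another arm would lie apart in this way was not counted. Both miR-16-5p and miR-125b-5p are listed on 2 entries with identical values, and how their reads were split is not stated. With both entries summed, the share of miR-322-5p was 3.708 ± 0.9801%, 4.386 ± 1.657% and 5.864 ± 0.5603% in control, DN and treated libraries. That of miR-351-5p was then 2.104 ± 0.3859%, 3.059 ± 1.054% and 3.271 ± 0.3012%. All these shares were computed after other values were seen and were not tested.

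The 5 tested mouse miRNAs outside the cluster whose log2 CPM followed the members' summed level most closely, with group means removed, were miR-200a-3p (r = 0.94), miR-126a-3p (0.92), miR-3068-5p (0.91), miR-27b-3p (0.90) and miR-499-5p (0.87), out of 429 candidates over 18 libraries. Their GC content was 33.3% to 47.6%, in the lower range of the members, and the points share depth and library. The summed level is led by the miR-322 arms, so likeness to it is not likeness to each member. Of the 5, miR-126a-3p belongs to the endothelial markers, whose sum was low in control 2, DN 2 and DN 3. What part that has was not tested.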

How the data were processed

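Small RNA of mouse kidney was sequenced on an Illumina HiSeq 2500 after Trizol extraction and TruSeq Small RNA library preparation, and reads were filtered with ACGT101-miR, per the labels' protocols. The submitters' processing notes name Trimmomatic 0.32, BWA, SAMtools and edgeR; build and miRBase release: not given in the sources used here. In its raw columns the deposited table holds estimated counts (76.9% of values above 0 whole), and its normalized columns are a signal that the authors made with 1 factor per library (0.6644 to 1.427). The 350 unnamed entries, 0.0136% to 0.148% of a library's counts, were left out.

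Estimated counts were rounded. One edgeR fit (edgeR 4.0.16, R 4.3.3) took all 18 libraries, with TMM scaling, filterByExpr with minimum count 10 and minimum total 15 and the legacy quasi-likelihood test (2-sided). Adjustment was over 619 entries, with a threshold of 0.05. Each SE is the log2 fold change divided by the root of F. Alternatives were other scalings and filters, DESeq2 1.42.0, limma-voom (limma 3.58.1), the edgeR 4 method, the replicate block, the 2 groups alone, each library left out and, added after seeing the data, joint exclusions and a GC offset per library from a line fitted on GC content. Levels are CPM with TMM factors, and log2 CPM has a prior count of 2. On simulated counts for treated against control (608 entries), 49% of 2-fold and 99% of 4-fold changes were recovered. The simulation gave every entry the same spread beyond counting error (coefficient of variation 0.5) and changed 98 of the tested entries at each fold. It had no libraries set apart by GC content or cell type markers, so these shares are not the power of the comparison made here. Depth limits precision through counting error, which the SDs over libraries include. Over the 45 pairs of libraries within groups, chi-square per degree of freedom was at least 56.2, so no library was counted as a duplicate.

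Members and lists were chosen with earlier results of these data known. All 8 members, the other arms of their hairpins, 7 miRNAs of shared seed and the 5 miRNAs most like the summed level were named by rule.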

Additional observations from a re-analysis of the deposited data

Results flagged for a closer look

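Some entries named for other species held a few reads under names of the cluster in single DN libraries. The entry rno-miR-450a-5p (rat) held 16 reads in DN 2 and 5 in DN 5. In DN 2 dno-miR-503-5p (armadillo) held 7 reads, and in DN 6 bta-miR-424-5p (cow) held 5 reads. Each was at 0 in all control and all treated libraries, and no group difference was tested on so few reads. A further entry, cpo-miR-424-5p (guinea pig), was present in all 18 libraries at 13 to 129 reads, which was 1.637% to 4.335% of the count of miR-322-5p. How reads were shared between mouse entries and these names is not stated. Of 81 checks for a library far from the rest of its group, 6 were flagged, where chance flags about 1 in 20. None of the 33 checks on the members' levels, their sum and the arm ratios was among them. The other 48 checks were on library features and on miRNAs that are no members. The count ratio of miR-351-5p to miR-322-5p was 2.405 in control 2, where the other controls had at most 0.6654, and 1.8 in DN 3, where the other DN libraries had at most 0.4964. In the same libraries miR-125b-5p stood at 4313 CPM (control 2, others 2239 to 2707) and miR-351-3p at 22.95 CPM (DN 3, others 6.529 to 11.28). The leukocyte markers summed to 23150 CPM in DN 2 (others 1345 to 1906) and to 8492 CPM in treated 6 (others 1472 to 2630). Fibroblast and pericyte markers summed to 7767 CPM in DN 2 (others 2201 to 2522). Striated muscle markers summed to 297.6 CPM in control 4 (others 76.36 to 89.48). These sums carry no flag, though each lay far from the rest of its group. The 6 flags are therefore not a full tally of libraries that stood apart.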

How the results depend on the processing

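The count of entries past the threshold was 0 in each comparison, and for DN against control it became 2 with a filter of 10 CPM in 6 libraries, 4 with DESeq2, 91 with limma-voom, 6 with the edgeR 4 method, 51 without control 2, DN 2 and DN 3, 1 without control 2 and DN 3, 1 with the GC offset, and 0 to 6 with each library left out. For treated against control it became 18 with DESeq2, 106 with limma-voom, 56 with the 2 groups alone, 3 with the edgeR 4 method, 50 and 3 without those 3 or 2 libraries, 2 with the GC offset, and 0 to 7 with each library left out. For treated against DN it was 0 in all. Over 32 alternative fits of 24 member results, 14 of 768 values were newly past the threshold and 9 changed sign, in 3 results: miR-322-3p in DN against control (0.01 with limma-voom, -0.16 to 0.02 with each library left out), miR-351-5p in treated against DN (-0.04 without scaling, -0.08 to 0.23) and miR-542-5p in treated against control (-0.14 without scaling, -0.05 to 0.21). The miR-322 arm ratio of treated against DN turned to 0.17 and 0.12 without the 3 or 2 libraries (-0.36 to 0.12 with each library left out). The miR-542 arm ratio of DN against control was -0.24 to 0.46, that of treated against DN 0.75 to 1.40 and that of treated against control 0.94 to 1.44 with each library left out; without control 2, DN 2 and DN 3 treated against DN fell to 0.47; treated against DN passed without DN 6 (exact permutation, adjusted p = 0.039) and treated against control without control 4 (0.026). The cause was not tested. A replicate block called 0 entries and gave 1.13 for miR-450b-5p and 1.42 for miR-542-3p in treated against control; over 18 pairs of same-numbered libraries of different groups, r was -0.27 to 0.28, above 0.1 in 3 (all control with DN) and best at its own number in 1, so the numbers were not taken to pair the libraries. Depth limits miR-542-5p most, at 23 to 80 reads.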
